A study of Mus musculus with 6 samples.

Results

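The 10 genes described here mark or act in tumor macrophages, the phagocytes that settle in a growing tumor: Adgre1, Csf1r, Csf1, Cd68, Mrc1, Nos2, Chil3, Trem2, Spp1 and Gpnmb. They were chosen by gene symbol, and all 10 were found among the 55536 genes with deposited counts. All 10 also passed the filter on low counts, which kept 15374 genes for testing. RNA was sequenced from 3 tumors of untreated mice, called controls 5, 6 and 7, and from 3 tumors of mice given GOx-DOX-LGP, called 1, 2 and 5, after the numbers in their labels. GOx-DOX-LGP is a lipid-gelatin-protamine nanogel that carries glucose oxidase (GOx), an enzyme that oxidizes glucose to gluconic acid and hydrogen peroxide, together with doxorubicin (DOX), a drug that damages DNA. Tumors of both groups grew from HCA-1, a single murine hepatocellular carcinoma line, implanted under the liver capsule of male C3H mice (C3H/HeNCrNarl in the study's methods) aged 6 to 8 weeks. The nanogel was injected intravenously on days 18, 19 and 20. The labels also place the transcriptome on day 17, with 3 h of circulation, which cannot be matched with those dosing days, while the study's methods for PCR of tumors dosed on the same days give a harvest on the day after the last dose. The controls are labelled untreated, without mention of an empty nanogel, and the labels do not say that each library came from a different mouse. The p-values therefore measure the spread between these tumors.

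Macrophages depend on signals through the CSF1 receptor, which binds the growth factors CSF1 and IL-34. They are often described along an axis from inflammatory activation, for which the nitric oxide synthase NOS2 is a classical mouse marker, to alternative activation, marked by the mannose receptor MRC1 and the chitinase-like protein CHIL3. A further state seen in tumors and fatty tissue expresses the lipid receptor TREM2, the lysosomal glycoprotein GPNMB and osteopontin, the product of Spp1. Osteopontin is a secreted matrix protein that carcinoma cells and bile duct cells also make, and CSF1 comes from tumor and stromal cells as well. Resident liver macrophages, the Kupffer cells, are a separate population with markers of their own such as CLEC4F. Whole tumors were sequenced, so that fewer cells of a type and less RNA per cell cannot be told apart.

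Levels are given as CPM, counts relative to library size, with library sizes scaled by the TMM method of edgeR, which balances libraries over the bulk of their genes. Values of the tumors are given in the order of controls 5, 6 and 7 and of GOx-DOX-LGP tumors 1, 2 and 5. Libraries held 15529940 to 18401178 counts, and 3 counts, taken as the smallest level a library can show, correspond to 0.132 to 0.323 CPM, for counting error only. Controls 6 and 7 stood apart from the other 4 libraries. Their 7 hepatocyte markers summed to 111700 and 180600 CPM, against 630 CPM in control 5 and 1306 to 3284 CPM in GOx-DOX-LGP tumors. Pearson's r of log2 CPM across genes, which are not independent replicates, was 0.969 between controls 6 and 7 and at most 0.803 between either of them and any other library, while control 5 had an r of 0.966 to 0.975 with the GOx-DOX-LGP tumors.

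Promoters of 4 members are shown, chosen with their values known: of the members whose treated tumors were all above the controls or whose unadjusted p was under 0.05, these have an entry in the RefSeq promoter table on GRCm38.p6. Each run holds the 250 bases before the start site, 5′ to 3′ on the gene's strand. Capitals mark GAGGAA, the core bound by the myeloid factor PU.1, and TGANTCA, the AP-1 motif, on either strand; where the opposite strand holds GAGGAA, the letters read TTCCTC.
Cd68 (chr11:69666171-69666420, minus strand): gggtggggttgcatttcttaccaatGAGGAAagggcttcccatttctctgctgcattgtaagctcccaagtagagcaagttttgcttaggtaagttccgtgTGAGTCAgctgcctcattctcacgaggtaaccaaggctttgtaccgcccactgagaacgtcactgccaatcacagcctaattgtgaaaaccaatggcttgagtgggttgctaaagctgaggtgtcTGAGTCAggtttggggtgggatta
Trem2 (chr17:48346151-48346400, plus strand): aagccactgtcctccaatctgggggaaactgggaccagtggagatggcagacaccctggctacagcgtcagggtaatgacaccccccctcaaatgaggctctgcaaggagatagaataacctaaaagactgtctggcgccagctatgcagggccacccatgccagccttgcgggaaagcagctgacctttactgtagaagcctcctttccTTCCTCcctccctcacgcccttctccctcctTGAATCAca
Csf1 (chr3:107760470-107760719, minus strand): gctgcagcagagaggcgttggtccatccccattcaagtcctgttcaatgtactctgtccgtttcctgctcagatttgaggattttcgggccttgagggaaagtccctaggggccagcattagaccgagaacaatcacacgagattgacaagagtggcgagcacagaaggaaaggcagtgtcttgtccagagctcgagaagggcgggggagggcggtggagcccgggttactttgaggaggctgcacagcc
Chil3 (chr3:106167565-106167814, minus strand): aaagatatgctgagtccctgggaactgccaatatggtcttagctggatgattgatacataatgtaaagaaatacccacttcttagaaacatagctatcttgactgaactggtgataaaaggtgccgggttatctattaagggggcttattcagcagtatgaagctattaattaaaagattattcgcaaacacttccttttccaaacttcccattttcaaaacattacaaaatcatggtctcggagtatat
The Cd68 window held GAGGAA 225 bases before the start and TGANTCA at 149 and 24 bases. The Trem2 window held GAGGAA at 40 bases, on the opposite strand, and TGANTCA at 9 bases. Neither motif was found in the windows of Csf1 and Chil3. Of 32851 promoter windows of this length, 23.3% held GAGGAA and 6.75% held TGANTCA. Of the members not shown, Mrc1 held 3 matches of GAGGAA and no TGANTCA, Gpnmb held neither, and Spp1, at the first of its 2 start sites, held 1 GAGGAA and, 211 bases before the start, TATAAA, which 12.4% of windows hold.

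Compared with control tumors, GOx-DOX-LGP tumors had higher levels of Cd68, Nos2, Chil3 and Csf1 in every library, without overlap between the groups. Trem2 was higher on average with overlap by 1 control, while Adgre1, Csf1r and Mrc1 overlapped widely, and Spp1 and Gpnmb varied more among the control tumors than between the groups. By the quasi-likelihood test of edgeR, with Benjamini-Hochberg correction over all genes tested, 0 of the 10 members had an adjusted p under 0.05, where 0% of the 15374 genes did, which does not show that the members did not differ. At an unadjusted p under 0.05 there were 4 members, Cd68, Nos2, Chil3 and Trem2, all higher in GOx-DOX-LGP tumors, beside 2.87% of all genes in that direction and 14.6% in the other. The 4 members without overlap compare with 8.87% of all genes higher and 8.31% lower without overlap. DESeq2 gave Cd68 and Chil3 an adjusted p under 0.05, both higher, beside 0.684% of 16513 genes called higher and 9.85% called lower. Nos2 and Chil3 passed the filter on low counts only through the treated tumors, so that their calls and their absence of overlap lend no support of their own, and of the members expressed in both groups DESeq2 called only Cd68. The median log2 fold change of the members was 0.98, against 0.02 for all genes. It includes Nos2 and Chil3. With at least 10 counts required in every library, which leaves out these 2 genes, the median of the 8 members tested was 0.86, against 0.0075 for all genes.

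**Figure D1:**
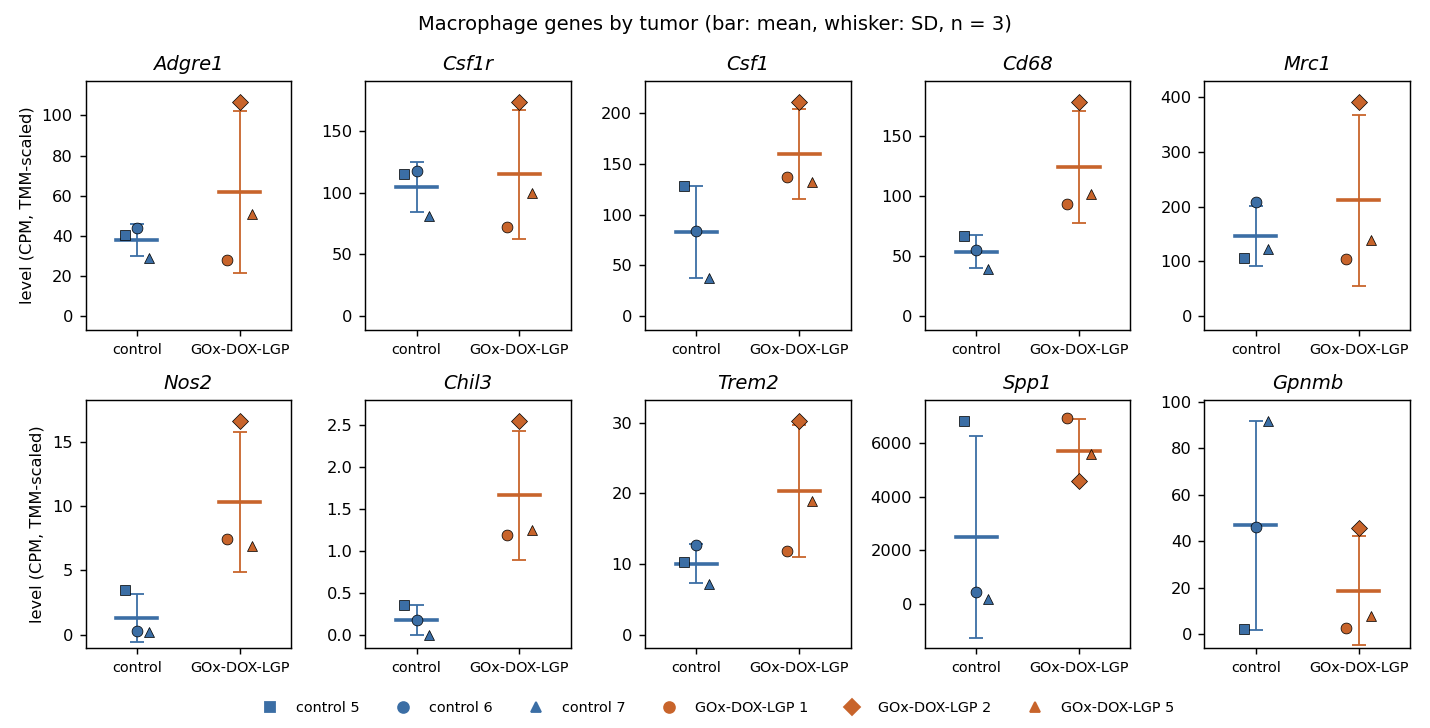
Level of each of the 10 macrophage genes (y axis, CPM after TMM scaling, each panel with its own range) in the 3 control and 3 GOx-DOX-LGP tumors, 1 symbol per tumor, with the mean (bar) and SD (whisker) of each group. GOx-DOX-LGP tumors lie above all controls for Csf1, Cd68, Nos2 and Chil3, and GOx-DOX-LGP tumor 2 is the highest library for 8 of the 10 genes.

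Among the genes that define macrophages, Cd68 (ENSMUSG00000018774; GRCm38 chromosome 11, 69664213 to 69666153), which encodes a glycoprotein of lysosomes and endosomes, measured 66.4, 55.2 and 39.1 CPM in controls 5, 6 and 7. After GOx-DOX-LGP, tumors 1, 2 and 5 reached 93.2, 178 and 102 CPM. Every treated tumor was above every control, and the lowest treated value was 1.40 times the highest control value. On the log2 scale the treated tumors were higher by 1.21 (SE, the standard error, 0.35). After adjustment p was 0.247 with edgeR and 0.0343 with DESeq2. By the exact permutation test of log2 CPM over libraries, two-sided, p was 0.1, the smallest that 3 libraries against 3 allow.

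Adgre1 (ENSMUSG00000004730; GRCm38 chromosome 17, 57358691 to 57483527) encodes F4/80, the surface antigen most used to define mouse macrophages. Its level was 40.5, 44.0 and 29.0 CPM in controls, against 27.8, 107 and 50.8 CPM after GOx-DOX-LGP. The lowest and the highest of the 6 values were both from treated tumors, and the groups overlapped. The log2 fold change of 0.71 (SE 0.50, edgeR adjusted p = 0.462) became 0.07 without GOx-DOX-LGP tumor 2.

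Csf1r (ENSMUSG00000024621), the receptor that macrophages need for survival, measured 115, 118 and 81.5 CPM in controls, against 72.0, 173 and 100 CPM after GOx-DOX-LGP. The group means, 105 ± 20.2 and 115 ± 52.3 CPM (SD, n = 3), differed by less than the spread between tumors, with a log2 fold change of 0.14 (SE 0.38, edgeR adjusted p = 0.838). It was -0.27 on the log2 scale without GOx-DOX-LGP tumor 2 and -0.02 without control 7. Its counts are in part uncertain, since other genes, chiefly Hmgxb3, share 14.3% of its transcript sequence in stretches of 50 bases, and Hmgxb3 overlaps it on the opposite strand.

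Csf1 (ENSMUSG00000014599; GRCm38 chromosome 3, 107741048 to 107760469), the ligand of that receptor, measured 128, 83.8 and 37.3 CPM in controls, against 137, 211 and 132 CPM after GOx-DOX-LGP. Treated tumors were all above the controls, but by little: the lowest treated tumor was 1.03 times control 5. The log2 fold change was 0.94 (SE 0.48, edgeR adjusted p = 0.349), and 0.33 against control 5 alone. Il34, which encodes the other ligand, measured 29.3, 5.34 and 1.94 CPM in controls, against 23.7, 17.0 and 28.5 CPM after GOx-DOX-LGP, with control 5 above all treated tumors. Over the colony-stimulating factor genes, 7 of 8 were kept, 0 had an adjusted p under 0.05 from edgeR, 0 an unadjusted p under 0.05, and 0 of the 6 with a DESeq2 value passed there, and the median log2 fold change was 0.51. After Csf1 and Il34, the largest difference was that of Csf2ra, a receptor chain for GM-CSF (log2 fold change 0.60, SE 0.42). Csf3, which encodes the neutrophil growth factor G-CSF, had under 3 counts in every library.

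Nos2 (ENSMUSG00000020826; GRCm38 chromosome 11, 78920787 to 78960254), which encodes inducible nitric oxide synthase, measured 3.47, 0.254 and 0.215 CPM in controls. It measured 7.41, 16.7 and 6.92 CPM in GOx-DOX-LGP tumors, so that the lowest treated tumor was 1.997 times control 5, the highest control. Controls 6 and 7 rest on 3 and 2 counts, and control 5 on 79. The treated tumors had 133 to 340 counts. On the log2 scale the treated tumors were higher by 2.88 (SE 1.09). After adjustment p was 0.261 with edgeR and 0.0563 with DESeq2 (exact permutation test, two-sided, p = 0.1). The log2 difference was 1.59 against control 5 alone and 5.43 without control 5.

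Among 14 genes listed for inflammatory activation, Nos2 included, 13 had a positive and 1 a negative log2 fold change, with a median of 1.20. With edgeR 0 had an adjusted p under 0.05, and at an unadjusted p under 0.05 there was 1 higher, Nos2, and 1 lower, Slc7a2, which DESeq2 also called lower. For 4 genes, Nos2, Il12b, Socs3 and Cd40, the treated tumors were above all controls, beside 8.87% of all genes tested. In controls 6 and 7, Nos2 had 3 and 2 counts, Il12b 4 and 1, and Cd40 7 and 9. These 3 genes passed the filter on low counts only through the treated tumors. Their calls and their absence of overlap thus lend no support of their own. Cd40 was so only narrowly, at 5.73 CPM in GOx-DOX-LGP tumor 1 and 5.62 CPM in control 5. Averaged over the 14 genes, control 5 reached 4.09 log2 CPM, inside the treated range of 4.03 to 4.22. Controls 6 and 7 reached 2.16 and 1.66, so that the list as a whole was low only in these 2 controls. Il12b, which encodes a subunit of interleukins 12 and 23, measured 2.28, 0.339 and 0.108 CPM in controls, against 3.02, 3.67 and 6.24 CPM after GOx-DOX-LGP (log2 fold change 2.13, SE 0.95, edgeR adjusted p = 0.31). Slc7a2, an arginine transporter that hepatocytes also express, measured 32.0, 468 and 875 CPM in controls 5, 6 and 7, against 19.6 to 59.5 CPM after GOx-DOX-LGP, so that only the controls with high hepatocyte markers stood out.

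Mrc1 (ENSMUSG00000026712; GRCm38 chromosome 2, 14229392 to 14332057), which encodes the mannose receptor CD206 and is also expressed by liver sinusoidal endothelium, measured 106, 209 and 123 CPM in controls, against 104, 390 and 139 CPM after GOx-DOX-LGP. The difference rests on a single treated tumor: the log2 fold change of 0.53 (SE 0.58, edgeR adjusted p = 0.605) was -0.24 without GOx-DOX-LGP tumor 2.

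Chil3 (ENSMUSG00000040809; GRCm38 chromosome 3, 106147554 to 106167564), which encodes the chitinase-like protein YM1, was low in every tumor. It had 8, 2 and 0 counts in controls 5, 6 and 7, which give 0.351, 0.17 and 0 CPM. GOx-DOX-LGP tumors 1, 2 and 5 had 24, 52 and 24 counts, or 1.19, 2.55 and 1.25 CPM, and the lowest treated level was 3.38 times the highest control level. The log2 fold change was 2.99 (SE 0.79). After adjustment p was 0.247 with edgeR and 0.00825 with DESeq2 (exact permutation test, two-sided, p = 0.1), for a gene kept only because of its counts in the treated tumors. The log2 difference was 2.24 against control 5 alone. Other genes, chiefly Chil4, share 26.9% of its stretches of 50 bases. Chil4 itself had 0 counts in all libraries. The other chitinase-like genes did not reach the filter, and Chil5, Chit1 and Chia1 had under 3 counts in every library.

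Of 16 genes listed for alternative activation, Mrc1 and Chil3 included, 14 were kept, 11 with a positive and 3 with a negative log2 fold change, with a median of 0.53. With edgeR 0 had an adjusted p under 0.05, and 2, Chil3 and Msr1, had an unadjusted p under 0.05. Those 2 were called higher by DESeq2, which among the genes kept also called Arg1 lower. Retnla, which the filter did not keep, was also called lower by DESeq2 (adjusted p = 0.0378). It had 1, 70 and 18 counts in controls 5, 6 and 7, against 1, 5 and 3 in GOx-DOX-LGP tumors 1, 2 and 5. Msr1, the scavenger receptor SR-A, was chosen after its values were seen: it measured 91.5, 57.4 and 50.9 CPM in controls, against 124, 186 and 137 CPM after GOx-DOX-LGP, without overlap (log2 fold change 1.16, SE 0.32, DESeq2 adjusted p = 0.0237). Arg1, which is both a macrophage marker and a urea cycle enzyme of hepatocytes, measured 22.5, 1214 and 2328 CPM in controls 5, 6 and 7, against 79.6, 182 and 46.1 CPM after GOx-DOX-LGP. Its high values were those of the controls with high hepatocyte markers. Folr2, a marker of tissue-resident macrophages, had a log2 fold change of 1.48 (SE 1.25, edgeR adjusted p = 0.524), with 8.13 CPM in GOx-DOX-LGP tumor 2 and at most 2.80 CPM elsewhere, and other genes share 52.6% of its stretches of 50 bases.

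Trem2 (ENSMUSG00000023992; GRCm38 chromosome 17, 48346401 to 48354147), a receptor for lipids and cell debris, measured 10.3, 12.6 and 7.21 CPM in controls, against 11.8, 30.2 and 18.8 CPM after GOx-DOX-LGP. Only control 6 was above the lowest treated tumor. On the log2 scale the treated tumors were higher by 1.01 (SE 0.41, edgeR adjusted p = 0.284, DESeq2 adjusted p = 0.166; exact permutation test, two-sided, p = 0.2), and 1.00 against control 5 alone. Its signaling partner Tyrobp had a log2 fold change of 0.75 (SE 0.32), with 22.1 to 38.5 CPM in controls, against 37.2 to 67.1 CPM after GOx-DOX-LGP.

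Spp1 (ENSMUSG00000029304; GRCm38 chromosome 5, 104435118 to 104441050) was the most abundant member by far. It measured 6838 CPM in control 5, but 463 and 178 CPM in controls 6 and 7. GOx-DOX-LGP tumors 1, 2 and 5 measured 6936, 4589 and 5616 CPM. Control 5 was within the range of the treated tumors, and the highest control was 38.5 times the lowest. The log2 fold change of 1.20 (SE 1.34, edgeR adjusted p = 0.615) was -0.24 against control 5 alone and 4.19 without control 5. Spp1 alone took 0.847% of all counts in control 5 (95% Wilson interval 0.843% to 0.851%, for counting error only) and 0.0101% in control 7 (0.0096% to 0.0106%). Reads of the overlapping gene Gm42793, with 11.6% of stretches of 50 bases shared, could not be separated from it. Of 7 osteopontin receptor genes, 6 had a positive log2 fold change and 0 an adjusted or unadjusted p under 0.05 from edgeR or an adjusted p under 0.05 from DESeq2, with a median of 0.51. Among them Cd44 measured 1366, 214 and 40.0 CPM in controls, against 1084 to 1242 CPM after GOx-DOX-LGP, with the high value again in control 5, while Itgb3 had the largest difference (log2 fold change 1.21, SE 0.57) and Itgb5 the third (0.61, SE 0.34).

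Gpnmb (ENSMUSG00000029816; GRCm38 chromosome 6, 49036546 to 49070929), a transmembrane glycoprotein of lysosomes, was the only member with a negative log2 fold change. It measured 2.19, 46.3 and 91.8 CPM in controls 5, 6 and 7. After GOx-DOX-LGP, tumors 1, 2 and 5 had 2.62, 45.5 and 7.86 CPM. Controls 6 and 7 and GOx-DOX-LGP tumor 2 were high, and the other 3 libraries low, so that neither group was uniform. The log2 fold change was -1.32 (SE 1.42, edgeR adjusted p = 0.603), 3.10 against control 5 alone and 1.99 with the mean hepatocyte marker level as a covariate.

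Of 20 genes listed for the TREM2 and lipid-associated state, these 3 members included, 12 had a positive and 8 a negative log2 fold change, with a median of 0.40. With edgeR 0 had an adjusted p under 0.05, and at an unadjusted p under 0.05 there were 1 higher and 5 lower. DESeq2 called 2 lower, Apoe and Lpl. Apoe, the apolipoprotein of lipid-laden macrophages and of hepatocytes, measured 321, 15000 and 21560 CPM in controls 5, 6 and 7, against 474 to 1165 CPM after GOx-DOX-LGP. Lpl, which encodes lipoprotein lipase, had a log2 fold change of -2.80 (SE 0.88). Lgals3, the galectin of phagocytes and carcinoma cells, was also high in control 5: it measured 1223, 148 and 53.2 CPM in controls, against 1214 to 2104 CPM after GOx-DOX-LGP (log2 fold change 1.80, SE 1.14). Controls 6 and 7 thus had the highest levels of Apoe and the lowest of Lgals3.

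**Figure D2:**
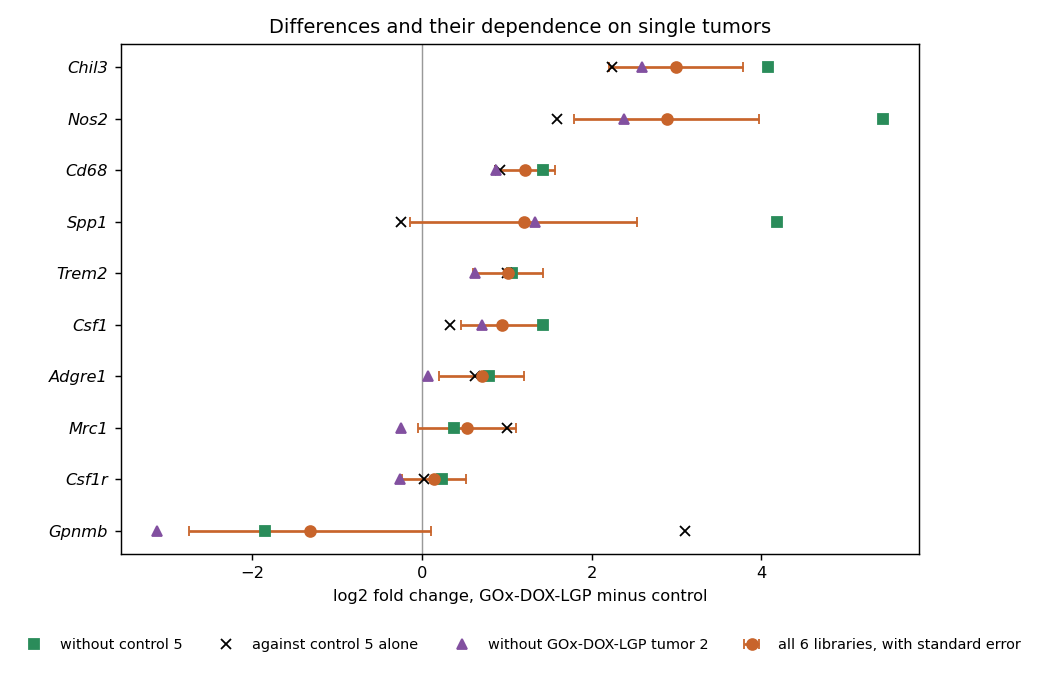
Log2 fold change of each member between GOx-DOX-LGP and control tumors (x axis), from all 6 libraries with its standard error, and after leaving out control 5, GOx-DOX-LGP tumor 2, or controls 6 and 7. Cd68, Nos2, Chil3, Trem2, Csf1 and Adgre1 are positive in all 4 fits, Spp1 and Gpnmb move by several log2 units with the choice of controls, and Mrc1 and Csf1r turn negative without GOx-DOX-LGP tumor 2. Nos2 and Chil3 passed the filter on low counts only through the treated tumors, so that their constant sign lends no support of its own.

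Single libraries weighed on these values. Without control 5, edgeR gave 5 members an adjusted p under 0.05, all higher in GOx-DOX-LGP tumors: Nos2 (0.000754), Spp1 (0.00122), Chil3 (0.0103), Cd68 (0.0121) and Csf1 (0.0208). In that fit 22.2% of 16249 genes were called higher, and the remaining controls were those with high hepatocyte markers. Those controls, 6 and 7, had 3 and 2 counts of Nos2 and 2 and 0 counts of Chil3. Both genes were thus kept only through the treated tumors, and their calls lend no support of their own. GOx-DOX-LGP tumor 2 was the highest of all libraries for 8 members, every one but Spp1 and Gpnmb. Without it, the log2 fold change was 0.88 for Cd68, 2.38 for Nos2, 2.59 for Chil3 and 0.63 for Trem2. With the hepatocyte covariate, the values were 0.94, 2.35, 2.56 and 0.89 in the same order, with adjusted p from edgeR between 0.35 and 0.768.

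Levels can be compared between genes once divided by the length of their annotated exons. On this scale, CPM per kilobase, the mean over control tumors was 1513 for Spp1, 42.6 for Cd68, 22.9 for Mrc1, 18.1 for Csf1r, 15.7 for Csf1, 11.7 for Adgre1, 7.18 for Gpnmb, 2.03 for Trem2, 0.297 for Nos2 and 0.106 for Chil3. Neighbours in this order had overlapping ranges, except Spp1 with Cd68 and Trem2 with Nos2. Ranges of Cd68, Mrc1, Csf1r and Csf1 were 31.1 to 52.8, 16.7 to 32.8, 14.1 to 20.4 and 7.07 to 24.3. They were 8.94 to 13.6 for Adgre1, 0.337 to 14.1 for Gpnmb and 1.458 to 2.555 for Trem2. Nos2 ranged from 0.0488 to 0.7855 and Chil3 from 0 to 0.2151. In GOx-DOX-LGP tumors Spp1 at 3467 and Cd68 at 98.9 again led, and the lowest means were 4.10 for Trem2, 2.87 for Gpnmb, 2.34 for Nos2 and 1.02 for Chil3. Among these lowest members, neighbours had overlapping ranges except Nos2 and Chil3. The ranges were 2.39 to 6.11 for Trem2, 0.402 to 6.99 for Gpnmb, 1.57 to 3.78 for Nos2 and 0.727 to 1.56 for Chil3. Gpnmb was above Trem2 in tumor 2 but below Nos2 in tumors 1 and 5. Nos2 and Chil3 thus stayed far below the genes that define macrophages in both groups.

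A ratio formed inside a library does not depend on how libraries are scaled. Each member was set against the mean log2 CPM of Adgre1, Csf1r and Cd68, with the member itself left out. Csf1r was lower relative to Adgre1 and Cd68 in every GOx-DOX-LGP tumor, at 0.50, 0.33 and 0.48 log2 units, than in controls, at 1.15, 1.25 and 1.27. Cd68 went the other way, at 1.06, 0.39 and 0.51 in GOx-DOX-LGP tumors and -0.04, -0.38 and -0.31 in controls. The differences were -0.79 for Csf1r and 0.90 for Cd68, with an exact permutation p of 0.1 each, two-sided and the smallest possible. Since Adgre1, Csf1r and Cd68 were each set against the mean of the others, their differences must cancel out. With Adgre1 at -0.11, the opposite signs of Csf1r and Cd68 are therefore not separate results. Against the mean of the complement genes C1qa, C1qb and C1qc, Csf1r differed by -0.95 without overlap, but Cd68 by 0.18 with overlap, so that the Cd68 result depended on the reference taken. Nos2 and Chil3 were below the reference in every library, but by 3.08 and 2.17 log2 units less in GOx-DOX-LGP tumors. Their control and treated ratios stayed apart, without overlap, with this reference and with Adgre1, Csf1r, Cd68 or the mean of C1qa, C1qb and C1qc. Both genes passed the filter on low counts only through the treated tumors, so that this separation lends no support of its own. In controls 6 and 7 the ratios rest on 3 and 2 counts of Nos2 and on 2 and 0 of Chil3. The Trem2 ratio was 0.35 log2 units higher, also without overlap, but it was -0.24 against Cd68 and -0.07 against the C1q genes. Against Adgre1 alone the groups overlapped for Trem2. The share of all genes whose ratios separate was not counted. Mrc1 differed by -0.24, Csf1 by 0.50, Adgre1 by -0.11, Spp1 by 2.18 and Gpnmb by -1.69, with overlap for each (exact permutation test, two-sided, p of 0.3 to 0.8).

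**Figure D3:**
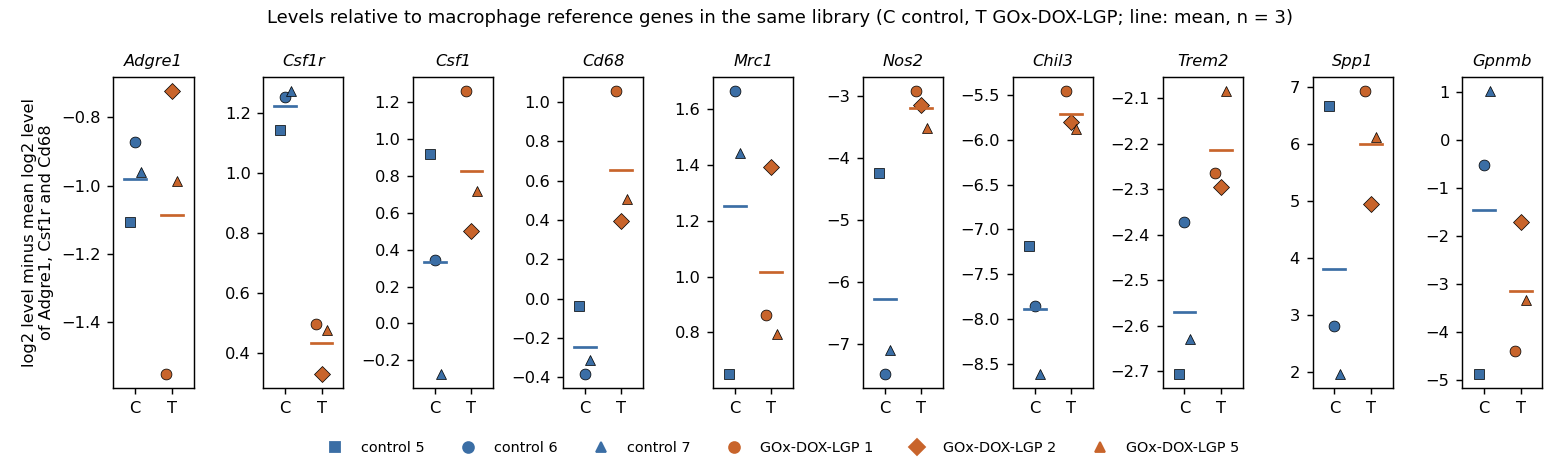
Log2 level of each member minus the mean log2 level of Adgre1, Csf1r and Cd68 in the same library (y axis, each panel with its own range), for control (C) and GOx-DOX-LGP (T) tumors, with 1 symbol per tumor and the mean as a line. The groups separate for Csf1r, which is lower in GOx-DOX-LGP tumors, and for Cd68, Nos2, Chil3 and Trem2, which are higher. The share of all genes that separate against this reference was not counted. The groups overlap for Trem2 against Adgre1, Cd68 or the C1q genes, and for Cd68 against the C1q genes. Nos2 and Chil3 passed the filter on low counts only through the treated tumors, so that their separation lends no support of its own. Csf1r and Cd68 are each part of the other's reference, so that they are not separate results.

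Other genes of macrophages and monocytes gave a context for the members. Of 18 such genes, 16 had a positive log2 fold change and 2 a negative one, with a median of 0.91. Averaged over the 18 genes, control 5 reached 5.95 log2 CPM, above GOx-DOX-LGP tumor 1 at 5.865. Controls 6 and 7 reached 5.51 and 4.91, and GOx-DOX-LGP tumors 2 and 5 reached 6.77 and 6.44. The groups thus overlapped for the list as a whole. With edgeR 0 had an adjusted p under 0.05, 4 were higher and 1 lower at an unadjusted p under 0.05, and DESeq2 called 1 higher, Itgam. Itgam, which encodes the integrin CD11b of myeloid cells, measured 11.4, 13.6 and 5.81 CPM in controls, against 21.7, 66.3 and 45.0 CPM after GOx-DOX-LGP (log2 fold change 2.11, SE 0.51, DESeq2 adjusted p = 0.00396), and 66.3% of its stretches of 50 bases are shared with other genes, chiefly the overlapping Gm49368. Cd14, a receptor for bacterial lipopolysaccharide, measured 51.7, 24.8 and 10.7 CPM in controls, against 75.4, 98.3 and 94.4 CPM after GOx-DOX-LGP, without overlap (log2 fold change 1.62, SE 0.56). Lyz2, which encodes a lysozyme of myeloid cells, had a log2 fold change of 1.43 (SE 0.61) with overlap. The complement genes C1qa, C1qb and C1qc had log2 fold changes of 1.08, 0.97 and 0.95 (SEs 0.45, 0.40 and 0.42). The gene lower at an unadjusted p under 0.05 was Mertk, a receptor for the uptake of dying cells, named here after its values were seen: it measured 42.95, 42.7 and 47.2 CPM in controls, against 29.3, 31.5 and 31.7 CPM after GOx-DOX-LGP (log2 fold change -0.52, SE 0.17). Of 6 lysosomal glycoprotein genes, Cd68 included, 5 were kept, and DESeq2 called 1 of them, Cd68. Cd63 had a log2 fold change of 1.33 (SE 0.79) and Lamp2 of -1.29 (SE 0.60), and Lamp3 had under 3 counts in every library.

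The genes with the level pattern most like that of Adgre1 over the 6 libraries, by the root mean square difference of log2 CPM centred on each gene's mean, were Cysltr1 (0.17), Clec4a1 (0.17), Star (0.18), St8sia4 (0.21) and Plcd1 (0.22), where Adgre1 itself varied by 0.64 about its mean. For Trem2, which varied by 0.65, they were Tmem231 (0.11), Npl (0.13), C1qb (0.15), Pirb (0.15) and Agpat4 (0.19). Pirb shares 34% of its stretches of 50 bases with other genes, chiefly Lilra6.

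Markers of other cell types also differed between the libraries. All 7 hepatocyte markers had a negative log2 fold change, with a median of -5.35, and Alb measured 353, 73800 and 128200 CPM in controls 5, 6 and 7, against 733 to 1893 CPM after GOx-DOX-LGP. Log2 fold changes were -5.78 for Alb, -5.78 for Serpina1c, which shares 79.3% of its stretches of 50 bases with other genes, and -5.36 for Fgb. The 6 Kupffer cell markers summed to 28.5, 282 and 287 CPM in controls 5, 6 and 7 and to 34.8 to 52.8 CPM in GOx-DOX-LGP tumors, led by Clec4f (log2 fold change -3.39), Cd5l (-2.42) and Vsig4 (-1.99). Of the 6, 4 had a negative and 2 a positive log2 fold change, Folr2 (1.48) and Marco (0.37). None of the 6 was at 0 in any library. Gpnmb was high in those same 2 controls and in GOx-DOX-LGP tumor 2. The 6 endothelial markers summed to 109, 330 and 376 CPM in controls, against 80.0 to 96.1 CPM after GOx-DOX-LGP, with the largest differences in Clec4g (-4.55), Stab2 (-3.29) and Tek (-2.37).

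Leukocyte markers were higher in GOx-DOX-LGP tumors as a mean. The 5 pan-leukocyte genes summed to 514, 381 and 321 CPM in controls, against 540, 717 and 675 CPM after GOx-DOX-LGP, with Cd52 (1.21), Coro1a (1.12) and Cd53 (1.07) leading on the log2 scale. All 5 had a positive log2 fold change, but Ptprc was highest in control 5, at 116 CPM, against 90.75, 115.1 and 115.7 CPM after GOx-DOX-LGP. The 7 T cell markers summed to 91.5, 54.95 and 28.1 CPM in controls, against 121, 126 and 175 CPM after GOx-DOX-LGP, led by Cd3d (1.73), Cd3g (1.52) and Cd3e (1.44), which were the 3 that DESeq2 called. Neutrophil markers, of which 5 of 7 were kept, summed to 19.9, 24.3 and 9.26 CPM in controls, against 19.0, 39.3 and 56.6 CPM after GOx-DOX-LGP, with log2 fold changes of 2.26 for Mmp9, 1.71 for S100a8 and 1.62 for S100a9, and at most 7 counts of the neutrophil-specific Ly6g in a library. Dendritic cell markers had a median log2 fold change of 0.04, with Ccr7 at 1.48, Cd209a at -1.06 and Zbtb46 at -0.84. Of 5 B cell markers 3 were kept, all with a negative log2 fold change, Jchain (-3.68), Cd79a (-1.06) and Cd79b (-0.11). Fibroblast markers had a median of 0.79, with Dcn at -1.15, Acta2 at 1.14 and Col1a1 at 0.79, and cholangiocyte markers, whose cells also make osteopontin, a median of 0.50, with Sox9 at 1.03, Cldn4 at 0.88 and Krt19 at 0.50. Of these values, the hepatocyte level was entered as a covariate, and the part of the other cell types in the differences of the members was not tested.

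**Figure D4:**
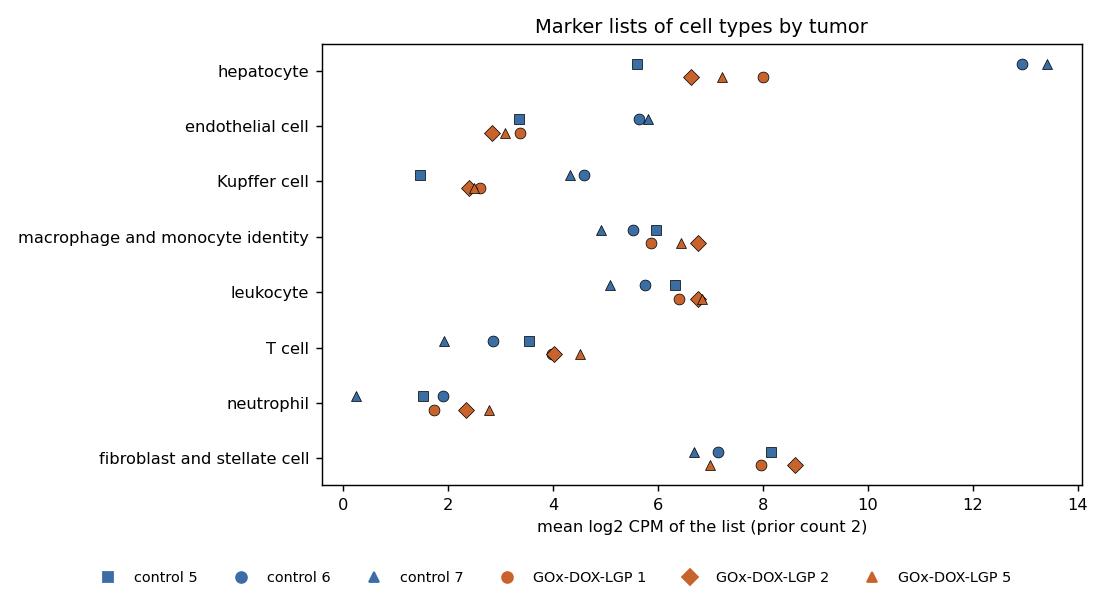
Mean log2 CPM of 8 marker lists (x axis) in each control and GOx-DOX-LGP tumor, 1 symbol per tumor. Controls 6 and 7 lie to the right for hepatocyte, endothelial and Kupffer cell markers, while the leukocyte and T cell lists are higher in all GOx-DOX-LGP tumors than in all controls. For the leukocyte list the margin is narrow, at 6.41 in GOx-DOX-LGP tumor 1 and 6.32 in control 5.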

How the data were processed

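RNA was extracted with RNeasy kits and libraries were made with the KAPA mRNA HyperPrep kit, 1 per tumor, 3 per group. The authors deposited raw counts per gene and, as a second table, the same counts divided by 1 size factor per library, a normalized signal used only to check that the tables match. Sources conflict on the software: the supporting methods name TopHat and HTSeq, while the submitters' processing notes list Trimmomatic 0.38, HISAT2 2.1.0 and featureCounts 2.0.0. The genome build, annotation release and strand setting are not given in the sources used here, so overlapping genes are named where they share sequence.

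Counts were fitted in R 4.3.3 with edgeR 4.0.16 (filterByExpr, TMM, quasi-likelihood test, Benjamini-Hochberg over 15374 genes, threshold 0.05), without covariates, as a comparison of 3 libraries with 3. Library totals ranged from 15529940 to 18401178 counts. Alternatives were DESeq2 1.42.0, the edgeR exact test, limma 3.58.1 voom with sample quality weights, other scalings and filters, a hepatocyte covariate, and leaving out each library. The fit was tested on simulated data: it recovered known changes at a low spread, but none of those set in data with the spread of these libraries, so its counts of 0 calls do not show that genes did not differ. log2 CPM used a prior count of 2, and SE is that of the fitted coefficient. Single values were compared by exact permutation of the 20 arrangements of libraries. Named genes are the 10 members, the 3 kept genes with the largest absolute log2 fold change in each list, list genes under 3 counts in every library, C1qa, C1qb, C1qc, Alb, and the 5 genes nearest to Adgre1 and to Trem2. Msr1, Mertk, Tyrobp, Socs3, Cd40, Retnla, Ly6g, Marco and Ptprc were named outside this rule, after their values were seen. The members and lists were chosen with earlier results of these data known. Gene positions, exon lengths and shared stretches of 50 bases come from the GENCODE annotation on GRCm38, promoters from RefSeq on GRCm38.p6. Promoter entries were used for 7 members. Adgre1 and Nos2 had no entry, and Csf1r was left out of the promoter search by choice. Figures were drawn with matplotlib 3.10.9 in Python 3.11.15.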

Additional observations from a re-analysis of the deposited data

How the results depend on the processing

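Counts of calls depended on the test. At an adjusted p under 0.05, edgeR's quasi-likelihood test called 0 genes and 0 members, with 2685 genes and 4 members at an unadjusted p under 0.05. DESeq2 called 1739 genes and 2 members, the edgeR exact test 1098 genes and 1 member, and limma voom with sample quality weights 9254 genes and 6 members, of which 5 were higher and Gpnmb lower. Leaving out 1 library at a time gave 0 to 7745 genes and 0 to 5 members, and the high end was reached without control 5. The cause was not tested.

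Directions changed for the following members. With voom the log2 fold change was -0.21 for Adgre1, -0.41 for Csf1r and -0.59 for Mrc1. With the hepatocyte covariate it was -0.047 for Csf1r and 1.99 for Gpnmb. Against control 5 alone, an alternative chosen after seeing the data, it was 3.10 for Gpnmb and -0.24 for Spp1. Leaving out 1 library, it ranged from -0.27 to 0.41 for Csf1r and from -0.24 to 0.89 for Mrc1. The ratio of Adgre1 was 0.45 against Csf1r and ranged from -0.29 to 0.13 (0.125 without GOx-DOX-LGP tumor 1) with 1 library left out. The ratio of Csf1 was -0.10 against Cd68, that of Mrc1 0.29 against Csf1r, and that of Trem2 -0.067 against the C1q genes and -0.24 against Cd68. Cd68, Nos2, Chil3, Csf1 and Trem2 kept a positive log2 fold change under all alternatives run for them, with 1 library left out 0.88 to 1.43, 2.38 to 5.43, 2.57 to 4.07, 0.59 to 1.43 and 0.63 to 1.31. Nos2 and Chil3 passed the filter on low counts only through the treated tumors, so that their constant sign lends no support of its own. Trem2 was lowest with voom, at 0.27 (limma adjusted p = 0.543). Library totals in place of TMM moved the median of all genes from 0.02 to 0.51, upper quartile scaling to 0.19, while the median of the members was 0.98 with TMM and 1.26 with library totals. Under a filter of at least 10 counts in every library, Nos2 and Chil3 could not be tested. The low counts of these genes in controls limit their fold changes. No paired analysis was possible because the groups share only the number 5 in their labels.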
